A study of Mus musculus with 4 samples.

Results

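This account covers the mRNAs of enzymes and complexes that modify or move nucleosomes, as bound by the RNA acetyltransferase NAT10 in a mouse blood cell line. Members were chosen by gene name, as the numbered Kmt, Kdm, Hdac, Chd, Brd and Arid genes and the Setd and Smarc genes, with no measured value in the rule. The choice was made with earlier results of these data known. The RefSeq gene table of GRCm38.p6 gave 84 protein-coding genes of this kind that are described here. Of these, 17 had a peak in the deposited list, with 25 of its 4172 distinct peaks. The other 67 had no listed peak. By role the 84 genes were 17 writers of histone methylation (Kmt and Setd), 29 erasers (the demethylases Kdm and the deacetylases Hdac), 6 bromodomain readers (Brd) and 32 remodellers (Smarc, Chd and Arid). The groups follow the family names, so a family can hold genes of another role. Setd3, Setd4, Setd6 and the Arid3 and Arid5 genes are among such cases without a peak. Among the bound genes, Kmt2e and Setd5 count as writers by name. Kmt2e has little known enzyme activity, and Setd5 works with deacetylase co-repressors.

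The assay was eCLIP, in which ultraviolet light links proteins to bound RNA and the fragments recovered with an antibody are sequenced. There were 2 libraries of immunoprecipitates made with 20 µg of a NAT10 antibody and 2 input libraries without antibody. All came from wild-type 32D cells, a mouse bone marrow line kept in medium with serum and 10 ng/mL of interleukin-3 and irradiated at 150 mJ and 254 nm. The authors' list gives 1 fold and 1 p for each peak and no value per library. How the libraries were combined is not known. No replicate spread, library depth or test could therefore be computed, and what follows is description.

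The labels call the cells lymphoblastocytes. Of 16 myeloid and mast cell markers, 5 had a peak (Gata2, Csf2rb, Srgn, Ptprc and Prtn3), against 0 of 13 lymphoid markers and 1 of 10 erythroid and megakaryocyte markers (Itga2b). The share over all protein-coding genes was 7.33%, so in lists this short the lymphoid and erythroid counts are near that background. Ptprc is also carried by lymphoid cells. The list shows bound RNA and not expression, so absence from it says nothing of whether a marker is expressed. The sole cell line studied gives no view of stem cells themselves, although the series was made to look into NAT10 in haematopoietic stem cells.

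NAT10 places N4-acetylcytidine on RNA, a mark known from rRNA and tRNA and described in mRNA. Chromatin regulators set which genes blood progenitors can use: writers add methyl groups to histone tails, erasers remove methyl or acetyl groups, readers dock on acetylated histones, and remodellers slide or evict nucleosomes with the energy of ATP. Several of the families are known for their roles in blood stem cells and are often mutated in leukaemia.

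A listed peak was found on 20.2% of the members, while 7.33% of all 21896 protein-coding genes had one. The background includes genes that these cells may not transcribe, and mRNA levels were not analysed here. The share was 35.3% among writers (6 of 17 genes), 33.3% among readers (2 of 6) and 18.8% among remodellers (6 of 32). Among erasers 3 of 29 genes had a peak (10.3%), close to the background. Families within a role are small, and differences between their counts were not tested. The Kmt genes had 4 of 7 members in the list (57.1%) and the Setd genes 2 of 10 (20%). The Chd genes had 3 of 9 (33.3%), the Smarc genes 2 of 13 (15.4%) and the Arid genes 1 of 10 (10%). All 3 erasers with a peak were demethylases, out of 18 Kdm genes (16.7%), and none of the 11 Hdac genes was listed. In families this short, the Hdac and Arid counts are near the 7.33% background.

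**Figure D1:**
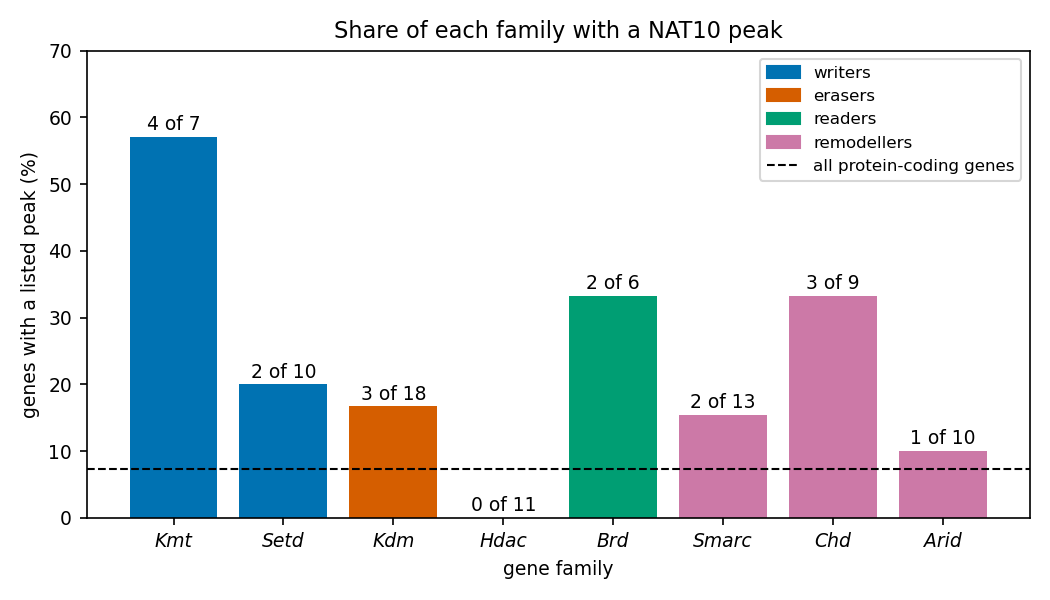
Bars give the percentage of protein-coding genes of each family with at least 1 listed NAT10 peak, coloured by role, with the counts above them; the dashed line is the 7.33% of all protein-coding genes. The Kmt family stands highest with 4 of 7 genes. The Hdac family stands at 0 of 11, which in a family this short is near the background.

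Most peaks on these mRNAs lay below the median fold of the list. The authors' fold was taken as log2 of immunoprecipitate over input and their p as -log10 p, from the range of the values. Member peaks had a median log2 fold of 4.38 (20.8-fold, interquartile range 4.11 to 4.68), against 4.60 (24.3-fold, 4.19 to 5.29) for all other peaks. With the median peak of each gene the gap was smaller, 4.41 for members and 4.46 for other genes. Of the 25 peaks, 9 exceeded the list median (36%), whereas 49.2% of other peaks did. The median -log10 p was 4.10 for members and 5.68 for other peaks. A -log10 p of at least 5 was found on 8 member peaks (32%) and on 57.0% of the others, and one of at least 10 on 2 member peaks and on 26.7% of the others. Counted by gene, 8 of the 84 members had a peak above the list median (9.52%), against 3.96% of all protein-coding genes. There were 7 of the 84 with a -log10 p of at least 5 (8.33%), against 4.1% of all protein-coding genes. With a log2 fold of at least 5 there were 3 members, Kmt5a, Smarca2 and Kmt2e, which is 3.57% of 84 against 2.66% of all protein-coding genes. At this stricter fold the share of members was near that of all genes.

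**Figure D2:**
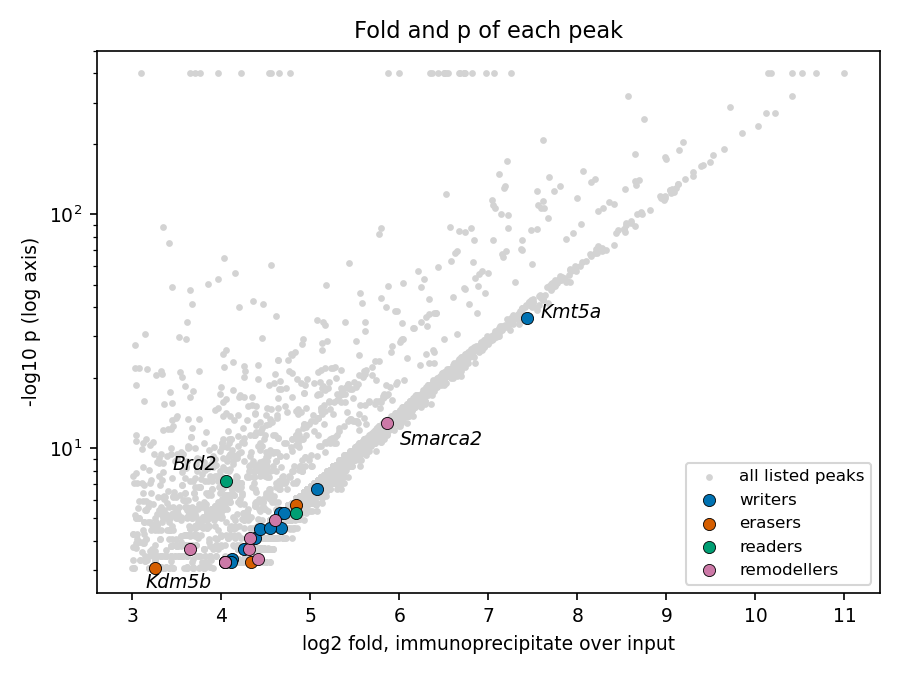
Each point is a peak, with its log2 fold of immunoprecipitate over input on the horizontal axis and its -log10 p on a logarithmic vertical axis; grey points are all listed peaks and coloured points the 25 peaks on chromatin genes by role. Most coloured points sit in the lower left, while Kmt5a (7.44) and Smarca2 (5.86) stand apart to the right and Brd2 has a high -log10 p (7.20) for its fold.

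Values of weak peaks came in steps. The 25 member peaks held 15 distinct values of -log10 p, equality being taken at 5 decimals. The most frequent, 3.27, stood on 5 of them (on Arid2, Brd2, Chd4, Kdm7a and Setd5) and on 315 peaks of the whole list. Peaks on Arid2, Brd2 and Chd4 had the same fold as well (4.05), a pair of values found on 84 listed peaks. For 22 of the 25 peaks (88%) the pair of fold and p also occurred on another peak of the list, which was so for 67.6% of the whole list. The exceptions were the strong peak of Kmt5a, the longer of the Brd2 peaks and the 3' UTR peak of Chd4. Peaks that share their values have no order among themselves, so the lower part of the ranking below is not a ranking of genes.

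Most member peaks lay in the 3' UTR by the authors' classes, which give the part of the transcript under each peak. There were 19 of 25 in the 3' UTR (76%, exact 95% interval 54.9 to 90.6, for counting error only). The other 6 had the class exon (24%), which the list keeps apart from the UTR classes. The interval takes peaks as independent, but some share a transcript, so it is likely too narrow. Among all other peaks 57.5% were in the 3' UTR, within that interval. By gene, 15 of the 84 members had a 3' UTR peak (17.9%, against 5.2% of all protein-coding genes) and 4 an exon peak (4.76%, against 3.16%). Of the 17 bound mRNAs, 13 had peaks in the 3' UTR alone (76.5%, against 52.3% of other gene identifiers). A gene with 1 peak can lie in only 1 part. Single peaks were more frequent among members (64.7%, against 46.6%), so these shares are not like for like. Setd2 and Chd3 had an exon peak alone. Peaks in more than 1 part were listed for Setd5 and Chd4. All 9 member peaks above the list median lay in the 3' UTR, a class that made up 59.4% of other peaks above it. The 6 exon peaks ran from 4.05 to 4.44. The median log2 fold was 4.55 for 3' UTR peaks of members and 4.19 for their exon peaks, and 4.64 and 4.55 for all peaks of those classes. The lengths of UTRs and exons were not used here, so the place of these peaks has no random expectation beside it.

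Few of these mRNAs carried many peaks. A single peak was listed for 11 of the 17 genes (64.7%), compared with 46.6% of other gene identifiers, and the maximum was 4, on Setd5, where the whole list reaches 36. No member peak touched another, whereas such pieces were common elsewhere: 753 of the rows of the list continued a neighbouring peak of the same gene. The median width was 99 nt for member peaks and 79 nt for the others, with a range of 39 to 199 nt. Joining touching pieces brought the others to 97 nt and left the members at 99 nt. None of the 25 peaks was listed under a second gene identifier.

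**Figure D3:**
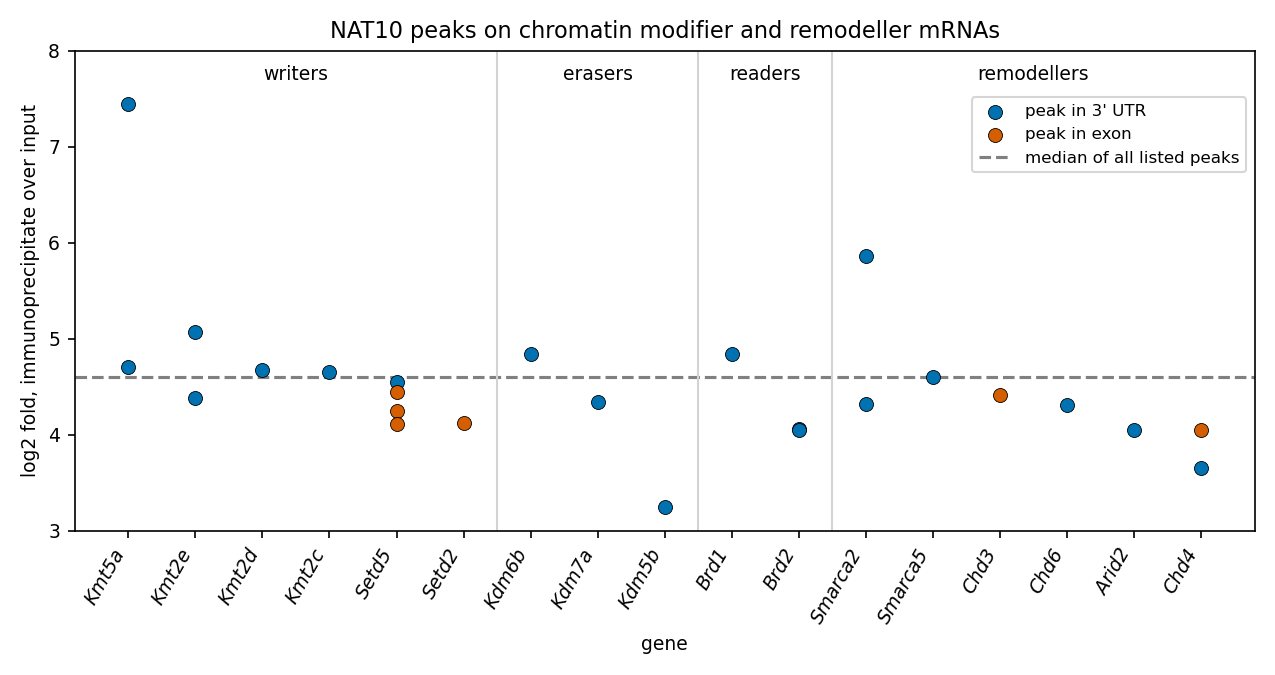
Points are the 25 listed peaks on the 17 bound chromatin genes, placed by gene and role; the vertical axis is the log2 fold of immunoprecipitate over input, colours give the authors' class, and the dashed line is the list median of 4.60. All exon peaks (orange) lie below the line, and Kmt5a at 7.44 is the highest.

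Writers held 11 of the peaks, 7 in the 3' UTR and 4 in exons, with a median log2 fold of 4.55. Kmt5a, which adds a single methyl group to histone H4 and is tied to chromosome condensation and genome stability, had the strongest peak of all members. Its log2 fold was 7.44 (174-fold) with a -log10 p of 36.1, on 173 nt of the plus strand of chromosome 5, 124598819 to 124598991 (GRCm39), in the 3' UTR. That peak ranked 149 of 4172 by fold. A second peak of Kmt5a began 110 nt further downstream, at 124599102 to 124599167, with a log2 fold of 4.71. The family members Kmt5b and Kmt5c, which add further methyl groups at the same residue, had no listed peak.

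The Kmt2 genes encode large methyltransferases of histone H3 and a divergent relative. Kmt2c and Kmt2d, the enzymes of enhancer methylation, had 1 peak each in the 3' UTR and nearly the same log2 fold. Kmt2c reached 4.66 with a -log10 p of 5.29, on 138 nt of the minus strand of chromosome 5 (25477108 to 25477245). Kmt2d reached 4.68 with a -log10 p of 4.53, on 58 nt of the minus strand of chromosome 15 (98729833 to 98729890). Both lay just above the median of the list. Kmt2e, the divergent relative, known for its part in blood cell formation and with little known enzyme activity, had 2 peaks in its 3' UTR on the plus strand of chromosome 5. The first reached 5.07 (23708229 to 23708357, -log10 p 6.67) and the second, 230 nt further, 4.38 (23708588 to 23708648). Kmt2b had no peak.

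Setd5 and Setd2 differed from the Kmt genes in where their peaks lay. Setd5, a SET domain protein that works with deacetylase co-repressors, had 4 peaks on the plus strand of chromosome 6, the most of any member, and 3 of them were in exons. In the direction of transcription the log2 folds were 4.25 (113083470 to 113083580), 4.11 (113104590 to 113104649) and 4.44 (113105861 to 113105962) in exons and 4.55 (113129991 to 113130089) in the 3' UTR. All 4 lay below the list median, and together they covered 372 nt over a genomic distance of 46620 nt, introns included. Setd2, which methylates histone H3 along transcribed genes, had 1 exon peak of 4.12 on chromosome 9 (110372303 to 110372449, plus strand). Its -log10 p of 3.34 stood near the floor of the list, 3.07. Setd1a, Setd1b, Setd3, Setd4, Setd6, Setd7, Setdb1 and Setdb2 had no listed peak.

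Erasers had 3 peaks, 1 each on 3 demethylases and all in the 3' UTR. Kdm6b, which removes methyl groups linked to Polycomb silencing, had the highest log2 fold, 4.84, with a -log10 p of 5.68, on the minus strand of chromosome 11 (69290069 to 69290167). Kdm7a, a demethylase that binds methylated histone H3 through a PHD finger, reached 4.34 on chromosome 6 (39118819 to 39118962, minus strand). Its -log10 p was 3.27, the value shared by 315 listed peaks. Kdm5b, which erases the methyl mark of active promoters, had the weakest peak of all members. Its log2 fold was 3.25 and its -log10 p 3.07 on chromosome 1 (134559590 to 134559693, plus strand), so it stood at the floor of the p column, and 2.01% of listed peaks had a lower fold. Their relatives Kdm6a, Kdm5a, Kdm5c and Kdm5d had no peak. Neither had Kdm1a, Kdm1b, Kdm2a, Kdm2b, Kdm3a, Kdm3b, Kdm4a, Kdm4b, Kdm4c, Kdm4d and Kdm8, nor Hdac1 to Hdac11.

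Readers had 3 peaks on 2 genes, all in the 3' UTR. Brd2, a bromodomain protein that binds acetylated histones at active genes, had 2 of them on the minus strand of chromosome 17. The upstream one covered 39 nt (34331202 to 34331240) and reached 4.05, at a -log10 p of 3.27. The other, 57 nt further along the transcript, covered 126 nt (34331019 to 34331144) with a fold of nearly the same size, 4.06, but a -log10 p of 7.20. Nearly equal folds thus came with unlike p-values, and among members only Kmt5a and Smarca2 had a higher -log10 p. Brd1, a scaffold of histone acetyltransferase complexes, had 1 peak of 4.84 with a -log10 p of 5.29 in its 3' UTR on chromosome 15 (88572157 to 88572227, minus strand). Brd3, a close relative of Brd2, had no peak, and neither had Brd7, Brd8 and Brd9.

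Remodellers had 8 peaks on 6 genes, with a median log2 fold of 4.32. Smarca2, one of the alternative ATPases of the SWI/SNF complex, had the second strongest member peak. The log2 fold was 5.86 (58.1-fold) with a -log10 p of 12.8, on 164 nt of the plus strand of chromosome 19, 26754895 to 26755058, in the 3' UTR. A second peak of 4.32 followed after 17 nt (26755076 to 26755152). The other ATPase, Smarca4, had no listed peak. Smarca5, an ATPase of ISWI complexes, had 1 peak of 4.61 with a -log10 p of 4.90 in its 3' UTR on chromosome 8 (81427203 to 81427280, minus strand). A transcribed pseudogene, Smarca5-ps, is in the RefSeq table, and the treatment of reads shared with such copies is unknown. Its paralogue Smarca1 had no peak. The remaining Smarc genes, Smarcad1, Smarcal1, Smarcb1, Smarcc1, Smarcc2, Smarcd1, Smarcd2, Smarcd3 and Smarce1, were not listed either.

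Of the chromodomain remodellers, Chd3 and Chd4 are ATPases of the NuRD complex, which couples remodelling to deacetylation. Chd4 had 2 weak peaks on the plus strand of chromosome 6, 4.05 in an exon (125084507 to 125084612) and 3.65 in the 3' UTR (125107334 to 125107407). Chd3 had 1 exon peak of 4.41 on chromosome 11 (69236381 to 69236579, minus strand), at 199 nt the widest of all member peaks. Its -log10 p was 3.34, so the widest peak was not among the better supported ones. Chd6, of another branch of the family, had a 3' UTR peak of 4.31 with a -log10 p of 3.68 on chromosome 2 (160789906 to 160789957, minus strand). Chd1, Chd2, Chd5, Chd7, Chd8 and Chd9 had no peak. Arid2, the subunit that marks the PBAF form of SWI/SNF, had 1 peak of 4.05 in its 3' UTR on chromosome 15 (96300984 to 96301075, plus strand). Arid1a and Arid1b, which occupy its place in the other main form, had no peak, and neither had Arid3a, Arid3b, Arid3c, Arid4a, Arid4b, Arid5a and Arid5b.

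Peaks in 2 or more separate regions were listed for 6 of the 84 members (7.14%), and 3.41% of all protein-coding genes had them. These 6 genes fell into a compact and a spread arrangement. On Kmt5a, Kmt2e, Smarca2 and Brd2 both peaks lay in the 3' UTR, within 222 to 420 nt of each other from outer edge to outer edge. In Kmt5a, Kmt2e and Smarca2 the upstream peak was the stronger and the wider one. In Brd2 the downstream peak was the wider one, with the folds almost equal. On Setd5 and Chd4 the peaks were spread over 46620 and 22901 nt of the genome and over exons and the 3' UTR, with introns between them, and no fold reached the list median.

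**Figure D4:**
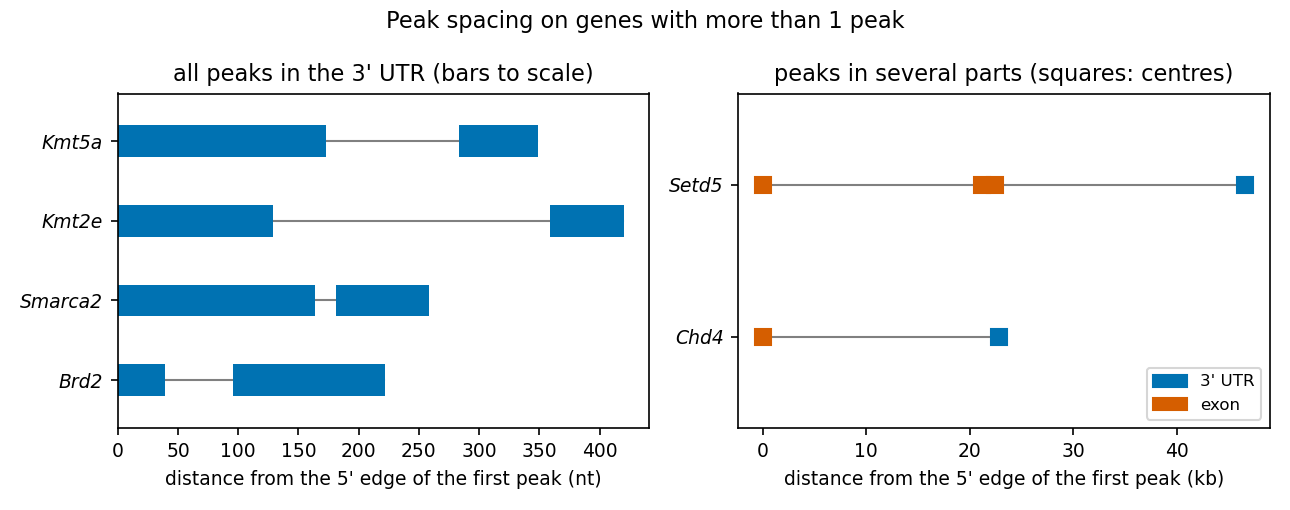
Peak positions on the 6 genes with more than 1 peak, in the direction of transcription, as distance from the 5' edge of the first peak, in nt on the left (bars to scale) and in genomic kb with introns on the right (squares at peak centres); colours give the authors' class. The genes on the left hold both peaks within 420 nt of 3' UTR, while those on the right reach from exons into the 3' UTR.

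Other genes of chromatin regulation were read from 9 lists with 147 genes, all found in the RefSeq table. Together 27 of them had a peak (18.4%), compared with 20.2% of the members and 7.33% of all protein-coding genes, and the median of their strongest peaks was 4.65, against 4.55 for the members. Partners of the deacetylases had 10 of 19 genes listed, the highest share of the lists. Gatad2b reached 6.55 with 8 peaks and Mta3 reached 6.50, both subunits of NuRD, and the histone chaperone Rbbp4 reached 5.35 with 6 peaks. The other 7 ran from 3.55 (Sin3b) to 4.84 (Tbl1xr1), and the median strongest peak of the list was 4.55, against 4.69 for genes that are no members. The Hdac genes themselves had none, which is near the background for a family this short, as given above. Polycomb genes had 5 of 29: Pcgf3 (6.09), Suz12 (5.52), Aebp2 (5.19), Cbx6 (4.55) and Jarid2 (4.14). DNA methylation genes had 3 of 10, Uhrf1 (4.47), Dnmt1 (4.38) and Tet2 (4.32).

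The other lists ranged from 0 to 14.3% of genes with a peak, beside 7.33% of all protein-coding genes. The remodelling subunits (7.69%) and acetyltransferases (8.33%) were nearest to that share. In lists this short, a count of 0, 1 or 2 genes is near the background. Methyltransferases outside the Kmt and Setd names and their partners had 3 of 22 (Ehmt1, Rbbp5 and Nsd3), and bromodomain proteins outside the Brd names 2 of 14 (Atad2 and Zmynd8). Further remodelling subunits had 2 of 26 (Atrx and Baz1b). Acetyltransferases had 1 of 12 (Ncoa3, 5.66, in an exon), sirtuins 1 of 7 (Sirt6), and JmjC proteins outside the Kdm names 0 of 8. Genes with no listed peak may still be bound, since the lowest values in the list were 3.00 for the log2 fold and 3.07 for -log10 p.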

How the data were processed

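NAT10 eCLIP libraries (2 immunoprecipitates, 2 inputs) of 32D cells were summarised by the authors in 1 deposited peak list, on GRCm39 per the submitters' processing notes. It has 4206 rows for 4172 distinct peaks, 34 of them under 2 gene identifiers. The fold column, named so per the file headers, was read as log2 from the range of its values, 3.00 to 11.0. The deposited p column was read as -log10 p, with a ceiling of 400. The sources used here do not state either scale, so the linear folds given above rest on this reading. The sources used here do not give the aligner, peak caller, joining of replicates, cut-offs or treatment of multiply mapped reads. Peak positions are counted from 1.

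Symbols were matched to the RefSeq table of GRCm38.p6 (1609 of 1626), used for names and gene types. Peaks of a gene that touched were joined into regions. No test was run: no value per library was used, and peaks or genes are not replicates. Shares of peaks have exact Clopper-Pearson intervals, which take peaks as independent (scipy 1.17.1, pandas 2.3.3). The joining of peaks was tested on simulated peaks, and the name rule on a short set of gene symbols. Every member with a peak is named. Members and lists were chosen with earlier results of these data known. Some genes in the range of the name rule and the lists are not reported here. Alternatives used stronger or wider peaks, joined regions, 1 value per gene, another background, exact symbols and a narrower member rule.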

Additional observations from a re-analysis of the deposited data

How the results depend on the processing

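Exact symbols, peaks of at least 20 nt and another background could not move the count of 17 members with a peak: no member needed a synonym, the narrowest member peak had 39 nt, and the background does not touch the members. Without receptor and predicted genes the background was 8.53%. The narrower rule dropped only genes without a peak (17 of 76, 22.4%). Stricter rules lowered it by construction. The count was 8 with peaks above the list median (9.52%, background 3.96%) and 7 with a -log10 p of at least 5 (8.33%, background 4.1%). With a log2 fold of at least 5 it was 3 (3.57%, background 2.66%), and with at least 2 separate regions 6 (7.14%, background 3.41%). The 25 peaks became 9 above the median and 8 with a -log10 p of at least 5, and stayed 25 regions after joining. The median log2 fold moved from 4.38 to 4.55 with the strongest peak of each gene (other genes 4.69) and to 4.41 with the median peak of each gene (4.46), so members were lower by each measure, by least in the last. Against other peaks without mitochondrial ones (4.59) it stood at 4.38. The 3' UTR share was 71.8% of bases (62.0% for others), 88.2% of genes (70.3%) and 100% of peaks above the median (59.4%). No paired analysis was possible because the list holds no values per library; for the same reason no replicate could be left out. The depth behind each peak is unknown, which limits weak peaks most.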

Other observations

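Subunits of whole complexes were counted after their values had been seen, so the counts have no test. Of 14 NuRD genes, 7 had a peak (50%): the ATPases Chd3 and Chd4 and the subunits Mta3, Mbd2, Gatad2a, Gatad2b and Rbbp4, with 20 peaks in all. Gatad2b (8) and Rbbp4 (6) held most of these peaks. The best -log10 p was 3.07 for Gatad2a, 3.27 for Mbd2, 3.34 for Chd3 and 3.69 for Chd4, near the list floor of 3.07. It was higher for Rbbp4 (8.48), Mta3 (20.4) and Gatad2b (21.6). All but Chd3 and Chd4 were also counted among the partners of the deacetylases above. The NuRD genes without one were Chd5, Hdac1, Hdac2, Mta1, Mta2, Mbd3 and Rbbp7. Of 27 SWI/SNF genes 2 had a peak (7.41%), Smarca2 and Arid2, with 3 peaks. Both NuRD and SWI/SNF are large remodelling complexes, and the background was 7.33% of protein-coding genes. The levels of these mRNAs in 32D cells were not analysed here.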
